A study of Mus musculus with 4 samples.

Results

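The genes described here are 45 interferon-stimulated genes and nucleic acid sensors, taken by symbol from the 24391 genes of a count table of primary mouse embryonic fibroblasts (MEFs). All 45 symbols had a row, and 43 passed the filter on low counts. *Zbp1* and *Oasl1* did not pass and are given without a test. MEFs are fibroblasts grown from mouse embryos, here at day E13.5, and they were held in quiescence, a resting state without cell division. RNA was sequenced from 2 WT and 2 *Phf2* KO libraries, each numbered replicate 1 and replicate 2 in the sample titles. The genotype of all 4 libraries is *Phf2* flox/flox, ERCre/+, so the WT cells carry the floxed alleles and CreERT2, a Cre recombinase expressed from the *Rosa26* locus that 4-hydroxytamoxifen (4-OHT) activates. Tamoxifen is named as a treatment for the 2 *Phf2* KO libraries and for neither WT library. The protocol of the *Phf2* deletion, worded alike for all 4 libraries, gives 0.5 µM 4-OHT for 7 days in medium with 2% charcoal-treated serum, and it does not name the vehicle of the WT cells. No library had 4-OHT without CreERT2, so loss of *Phf2*, Cre activity and 4-OHT cannot be told apart. The study describes its replicates as biological, but the labels do not tie them to embryos or cultures.

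Cells recognise foreign or misplaced nucleic acid with sensors of RNA and DNA, whose adaptors switch on the genes of type I interferons. Secreted interferon binds its receptor on the same and on neighbouring cells, and JAK kinases then activate STAT proteins, Stat2 among them, which act with Irf9 at the interferon-stimulated response element in the promoters of interferon-stimulated genes. The sensors and the factors that carry the signal are themselves interferon-stimulated genes, and fibroblasts hold many of them at a low constant level without infection. *Phf2* encodes a PHD finger protein of the Jumonji family.

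The libraries held between 21094743 and 26094268 counts. Levels are given as CPM after TMM scaling (a factor for each library that corrects for composition). The limit of detection was set at 3 counts, equal to 0.116 CPM in the deepest and 0.145 CPM in the shallowest library, and it covers counting error only. *Phf2* itself had 3244 (replicate 1) and 3680 (replicate 2) counts in WT, against 1454 and 2158 in *Phf2* KO. Here and in the sentences that follow, a pair of values for a group stands in the order replicate 1, replicate 2. Both *Phf2* KO libraries lay below both WT libraries, at 79.9 ± 13.8 CPM against 138 ± 5.11 CPM (SD, n = 2 in each group), with a log2 fold change of -0.79 (SE 0.14). Its adjusted p was 0.999 in edgeR's quasi-likelihood test without the replicate number and 7.67e-19 with the number as a block. The 14 fibroblast markers summed to 83649 and 86952 CPM in WT and to 75527 and 73120 CPM in *Phf2* KO. For 6 of them both *Phf2* KO libraries lay below both WT libraries, against 18% of all genes tested. The part of this in the comparison of the groups was not tested. The 10 markers of lymphoid and plasmacytoid cells summed to between 0.675 and 1.16 CPM. The replicate numbers differed in more than these genes. *Xist*, transcribed from the inactive X chromosome, had 10042 counts in replicate 1 of WT and 8336 in replicate 1 of *Phf2* KO, against 3 and 12 counts in the replicates 2. *Ddx3y*, on the Y chromosome, had 6 and 10 counts in replicates 1 and 1271 and 1295 counts in replicates 2. The 26 macrophage markers summed to 5237 and 5754 CPM in WT and *Phf2* KO replicates 1 and to 1124 and 1724 CPM in replicates 2. Each comparison of the groups is therefore given within each replicate number as well.

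The 45 genes together took 0.194% and 0.158% of the counts of WT replicates 1 and 2, and 0.173% and 0.155% of those of *Phf2* KO replicates 1 and 2. Because long genes collect more reads, levels of different genes were compared as CPM per kilobase of exon, using the GENCODE vM1 annotation of mm9 (NCBIM37), on which 44 of the 45 genes had a single position. *Ifi27* had no single position there. *Ifitm3* was highest, at a mean over the 4 libraries of 584 CPM per kilobase, followed by *Ifitm2* at 420 and *Bst2* at 106. These encode membrane proteins, the Ifitm proteins restricting viral entry and Bst2 (tetherin) holding budding virus at the cell surface. *Ifitm3* lay between 511 and 675 CPM per kilobase in single libraries and *Ifitm2* between 399 and 451, so they did not overlap. *Ifit3* at 51.9 CPM per kilobase, *Stat2* at 22.0, *Ifi35* at 19.9, *Mavs* at 15.4 and *Adar* at 12.5 came next. The libraries of *Stat2* and *Ifi35* overlapped in this order, from 20.1 to 24.4 and from 18.9 to 20.8 CPM per kilobase, while those of *Ifi35* lay above those of *Mavs*, which ran from 14.7 to 16.2. At the other end, *Ifi44*, *Mx1*, *Oas3*, *Oasl1* and *Zbp1* lay below 0.1 CPM per kilobase on average. In the plot of levels by library, the 2 dark symbols of replicate 1 stand to the right of the 2 light symbols of replicate 2 in most rows, whatever the group.

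**Figure D1:**
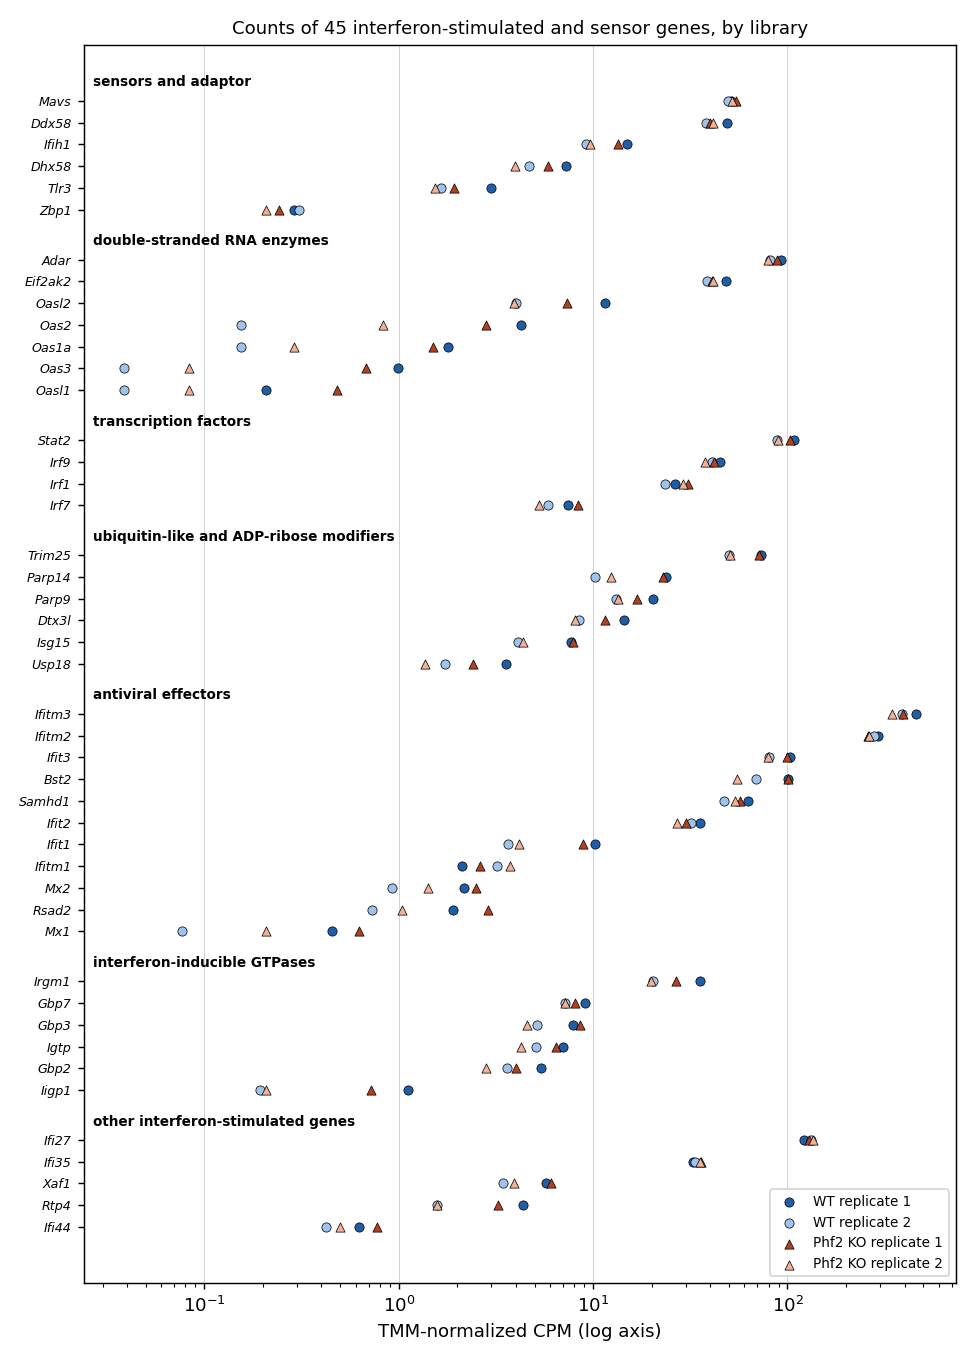
TMM-normalized CPM (log axis) of the 45 genes in each of the 4 libraries, by role; circles are WT, triangles *Phf2* KO, dark symbols replicate 1 and light symbols replicate 2. Each symbol is 1 library, and both libraries of replicate 1 lie above both of replicate 2 for 34 of the 43 genes that were tested.

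Matches to 2 regulatory motifs were looked for in the RefSeq promoter table (build GRCm38.p6), which gives 250 bases before and 50 bases after each annotated start. The table matched 34 of the 45 genes. *Dhx58*, *Zbp1*, *Oas2*, *Usp18*, *Parp9*, *Parp14*, *Mx1*, *Mx2*, *Iigp1*, *Ifi27* and *Rtp4* were not matched. The core of the interferon-stimulated response element was taken as GAAA, any 2 bases and GAAA, on either strand, where matches may overlap each other. It was found for 18 of the 34 genes (52.9%), against 3.99% of all 27025 genes in the table. The gamma-activated site, which STAT dimers bind, was taken as TTC, any 3 bases and GAA, and was found for 11 of the 34 genes (32.4%), against 9.55% of all genes. Some matches of the 2 motifs overlap. A match describes the letters only. Of the stretches below, *Oas3*, *Oas1a*, *Rsad2* and *Ifit1* are the tested genes with a promoter entry that differed most between the replicate numbers. *Oas2*, *Iigp1* and *Mx1* differed by more than *Rsad2* but had no entry. *Isg15*, *Bst2* and *Irgm1* are examples of the modifiers, effectors and GTPases, and *Irf1* is shown as well. Capitals mark the response element core, or for *Irf1* the gamma-activated site, and each stretch reads 5′ to 3′ on the strand of its gene. The stretches lie upstream of the start at chr5:120777710-120777749 (minus strand) for *Oas3*, chr5:120907526-120907560 (minus) for *Oas1a*, chr12:26456548-26456587 (minus) for *Rsad2*, chr19:34640770-34640828 (plus) for *Ifit1*, chr4:156200860-156200911 (minus) for *Isg15*, chr8:71537572-71537617 (minus) for *Bst2*, chr11:48871421-48871465 (minus) for *Irgm1* and chr11:53769909-53769947 (plus) for *Irf1*.
*Oas3*: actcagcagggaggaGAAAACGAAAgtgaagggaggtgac
*Oas1a*: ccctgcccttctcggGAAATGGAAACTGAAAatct
*Rsad2*: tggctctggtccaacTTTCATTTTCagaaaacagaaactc
*Ifit1*: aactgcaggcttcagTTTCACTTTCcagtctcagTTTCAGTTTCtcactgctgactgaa
*Isg15*: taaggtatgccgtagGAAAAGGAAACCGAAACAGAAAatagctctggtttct
*Bst2*: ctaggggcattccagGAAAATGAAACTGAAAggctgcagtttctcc
*Irgm1*: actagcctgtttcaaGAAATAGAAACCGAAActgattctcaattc
*Irf1*: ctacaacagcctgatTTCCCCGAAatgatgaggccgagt

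To ask whether loss of *Phf2* changed the expression of these genes, *Phf2* KO was compared with WT. None of the 43 genes tested passed edgeR's quasi-likelihood test at an adjusted p under 0.1, and none had an unadjusted p under 0.05. Of all 13668 genes tested, 1 passed in either direction (0.00732%). With the replicate number added as a block, edgeR called 5.77% of all genes higher and 5.2% lower, and of the 43 genes it called *Irf1* higher and none lower. At an unadjusted p under 0.05 the blocked fit had 1 of the 43 genes higher (*Irf1*) and 5 lower. Those 5 were *Ifit2*, *Oasl2*, *Irgm1*, *Ifitm3* and *Gbp2*. Over all genes that fit had 1421 higher and 1252 lower at that level. Unless the block is named, each SE of a fold change between the groups is from the fit without it. That SE includes the difference between the replicate numbers. In the fit without the block, the log2 fold change was above 0 for 15 and below 0 for 28 of the 43 genes, with a median of -0.09 against 0.01 over all genes. Without the block, none of the members was called by DESeq2, by limma-voom or by edgeR's likelihood ratio test. The sign of the median followed single libraries. It was 0.21 with WT replicate 1 left out and 0.10 with *Phf2* KO replicate 2 left out, but -0.27 with WT replicate 2 left out and -0.33 with *Phf2* KO replicate 1 left out.

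Within the replicate numbers, the median log2 ratio of *Phf2* KO to WT was -0.14 in replicate 1 and 0.03 in replicate 2. The ratio was above 0 in both numbers for 11 genes, below 0 in both for 15 and of opposite sign for 17. Over all genes tested, 4447 were higher in both numbers, 4128 lower in both and 5091 of opposite sign. Both *Phf2* KO libraries lay above both WT libraries for 3 of the 43 genes (*Mavs*, *Irf1* and *Ifi35*), against 15.5% of all genes. They lay below both for 2 (*Ifit2* and *Ifitm2*), against 18% of all genes. None of the 43 genes had groups that did not overlap together with a log2 ratio beyond 0.3 in the same direction in both numbers. The plot of the ratios within each number shows the rows scattered on both sides of 0, with the longest lines for *Oas2*, *Oas3* and *Oas1a*.

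**Figure D2:**
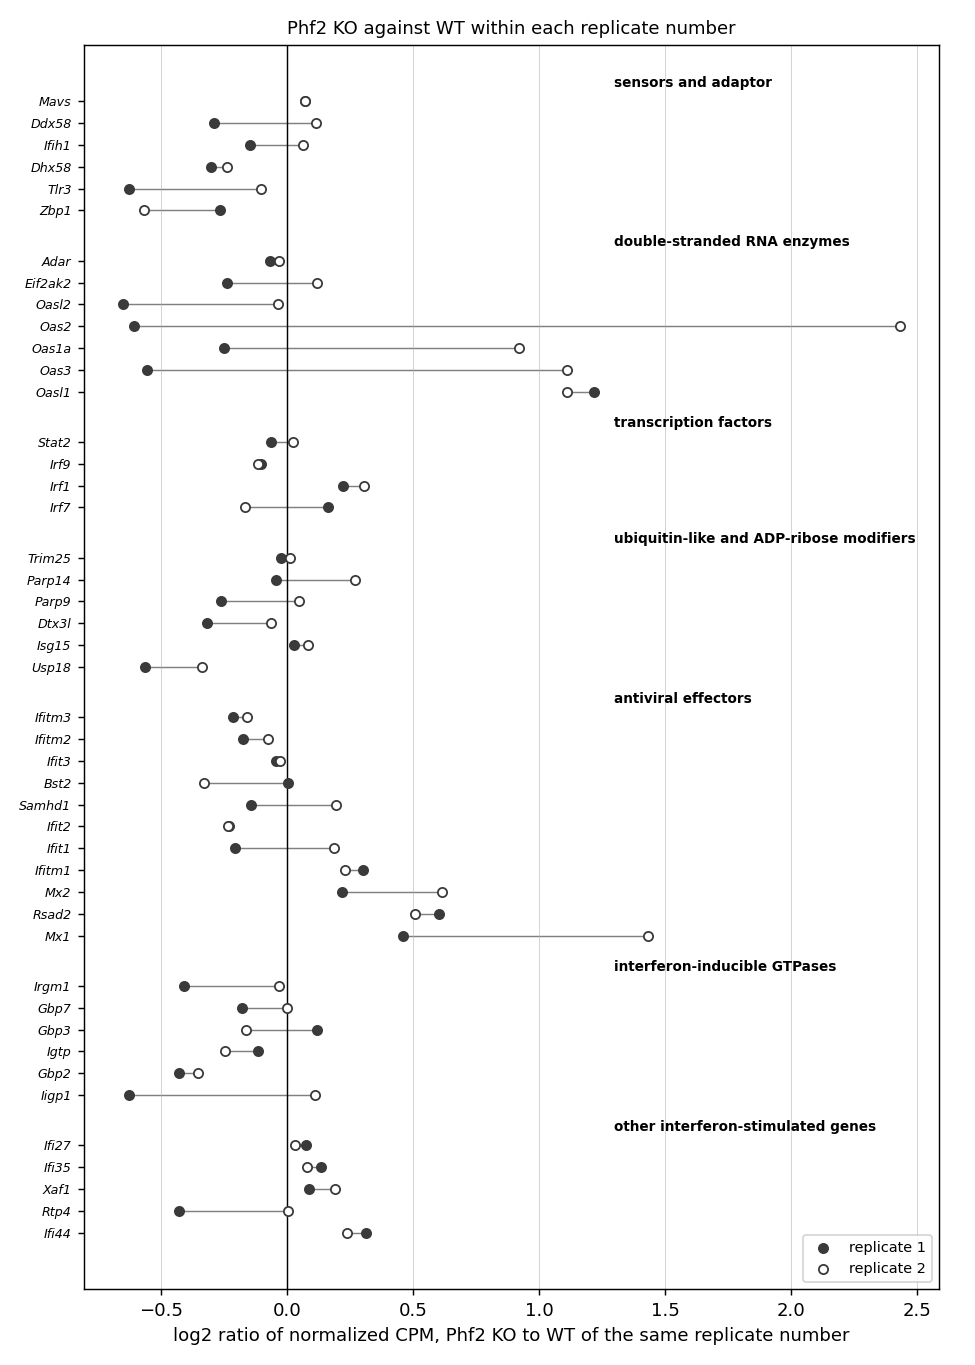
log2 ratio of normalized CPM of *Phf2* KO to WT of the same replicate number, for the 45 genes by role; filled points are replicate 1, open points replicate 2, and a line joins the points of a gene. For *Oas2* the points stand at -0.61 and 2.43, and for *Irf1* at 0.22 and 0.30.

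Among the sensors of RNA and their adaptor, 1 of 5 tested genes had a fold change above 0 and 4 below, and none passed the test. *Mavs*, the adaptor on mitochondria through which RIG-I and MDA5 signal, was the most abundant of them. It had 51.5 and 49.3 CPM in WT, set against 54.0 and 51.8 CPM in *Phf2* KO. Its groups did not overlap, and they differed by 0.07 on the log2 scale (SE 0.09, adjusted p = 0.999 in edgeR). *Ddx58*, which encodes RIG-I, a sensor of RNA with a 5′ triphosphate, had 48.7 and 38.1 CPM in WT and 39.8 and 41.2 CPM in *Phf2* KO. Its WT libraries enclosed both *Phf2* KO libraries. *Ifih1* (MDA5, a sensor of long double-stranded RNA), *Dhx58* (LGP2, which modulates both) and *Tlr3* (a receptor for double-stranded RNA in endosomes) had lower mean levels, from 2.03 to 11.8 CPM, and overlapping groups. *Zbp1*, a sensor of Z-form nucleic acid, had 7 and 8 counts in WT, with 5 and 5 in *Phf2* KO.

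The enzymes that act on or are activated by double-stranded RNA had log2 fold changes below 0 for 6 of 6 tested genes, and none passed the test. Within the replicate numbers the ratio was below 0 for 6 of the 6 in replicate 1 and for 2 of the 6 in replicate 2. *Adar*, which edits adenosine to inosine in double-stranded RNA, had 92.1 and 80.9 CPM in WT and 87.8 and 79.0 CPM in *Phf2* KO. Its log2 fold change of -0.05 (SE 0.11, adjusted p = 0.999 in edgeR) was smaller than the difference between the replicates of either group. *Eif2ak2*, which encodes the kinase PKR that halts translation, had 48.2 and 38.4 CPM in WT and 40.8 and 41.6 CPM in *Phf2* KO, again with both *Phf2* KO libraries inside the WT range. The oligoadenylate synthetases *Oas1a*, *Oas2* and *Oas3* make the messenger that activates RNase L, and their fold changes between the groups had the largest SE of the 43 genes. The 3 genes lie in the same cluster on chromosome 5, between 121180342 and 121357536 (mm9), on the minus strand. *Oas2* had 103 and 4 counts in WT and 58 and 20 in *Phf2* KO. *Oas1a* had 43 and 4 counts in WT and 31 and 7 in *Phf2* KO. *Oas3* had 24 and 1 counts in WT and 14 and 2 in *Phf2* KO. For each of the 3 genes the *Phf2* KO libraries fell between the WT libraries, and that SE was 1.25 for *Oas1a*, 1.37 for *Oas2* and 1.46 for *Oas3* on the log2 scale. *Oas1a* shares 57.1% of its 50-base windows with the transcripts of *Oas1g* or *Oas1b*, so its counts depend on how reads that match several genes were treated. The oligoadenylate synthetase-like gene *Oasl2* had 11.5 and 4.01 CPM in WT and 7.33 and 3.91 CPM in *Phf2* KO, and *Oasl1* had 5 and 1 counts in WT, with 10 and 2 in *Phf2* KO.

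The transcription factors split by sign, 2 above and 2 below 0. *Stat2*, which carries the type I interferon signal to DNA together with Irf9, had 108 and 88.4 CPM in WT and 103 and 89.8 CPM in *Phf2* KO (log2 fold change -0.03, SE 0.13, adjusted p = 0.999 in edgeR). *Irf9*, its DNA-binding partner, had a mean of 42.9 CPM in WT and 39.7 CPM in *Phf2* KO, with groups that overlapped. It overlaps *Rnf31* on the same strand in the annotation. *Irf7*, which drives the later wave of type I interferon genes, had 7.46 and 5.89 CPM in WT and 8.35 and 5.24 CPM in *Phf2* KO, so that the group with the higher level differed between the replicate numbers.

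*Irf1* was the one member called in any fit of the groups. It lies at chr11:53583516-53591876 on the plus strand (mm9). It encodes an activator of interferon-stimulated genes and of antigen presentation, and its promoter holds the gamma-activated site printed above. It had 26.5 and 23.4 CPM in WT and 30.9 and 28.9 CPM in *Phf2* KO, with means of 25.0 ± 2.23 and 29.9 ± 1.46 CPM (SD, n = 2). Both *Phf2* KO libraries lay above both WT libraries, by 0.22 on the log2 scale in replicate 1 and 0.30 in replicate 2. Without the block, its log2 fold change was 0.26 (SE 0.12) with an adjusted p of 0.999 in edgeR. With the replicate number as a block it was 0.26 (SE 0.10) with an adjusted p of 0.087. The blocked adjusted p of *Irf1* was 0.112 in limma-voom and 0.679 in DESeq2. In the same blocked fit 11 of 25 macrophage markers tested were called higher in *Phf2* KO, against 5.77% of all genes. The part of these markers in the value of *Irf1* was not tested.

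The ubiquitin-like and ADP-ribose modifiers had 2 fold changes above and 4 below 0 between the groups. *Trim25*, a ubiquitin ligase that acts on RIG-I, had 73.0 and 50.0 CPM in WT and 71.6 and 50.4 CPM in *Phf2* KO. The groups differed by -0.01 on the log2 scale (SE 0.26, adjusted p = 0.999 in edgeR), while the replicates of each group differed by over 20 CPM. The SE of *Trim25* was 0.09 with the replicate number as a block. *Isg15*, the ubiquitin-like protein that is joined to other proteins after interferon, had 7.71 and 4.12 CPM in WT and 7.86 and 4.37 CPM in *Phf2* KO, and *Usp18*, the protease that removes it, had 3.57 and 1.73 CPM in WT and 2.41 and 1.37 CPM in *Phf2* KO. *Parp14*, a mono-ADP-ribosyl transferase, had 23.7 and 10.2 CPM in WT and 23.0 and 12.3 CPM in *Phf2* KO. *Parp9* and *Dtx3l*, whose products form a complex of an ADP-ribosyl transferase and a ubiquitin ligase, overlap on opposite strands. They had groups that overlapped, at mean levels of 15.9 and 10.6 CPM.

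Of the 11 antiviral effectors, 5 fold changes were above and 6 below 0, and none passed the test. *Ifitm3* had 458 and 387 CPM in WT and 394 and 347 CPM in *Phf2* KO (log2 fold change -0.19, SE 0.13, adjusted p = 0.999 in edgeR). It was lower in *Phf2* KO in both numbers, but *Phf2* KO replicate 1 lay above WT replicate 2. *Ifitm2* had 294 and 277 CPM in WT and 260 and 263 CPM in *Phf2* KO, and *Ifit2*, of the family that binds viral RNA, had 35.5 and 31.7 CPM in WT and 30.2 and 27.0 CPM in *Phf2* KO. These were the 2 genes with both *Phf2* KO libraries below both WT libraries, with log2 fold changes of -0.13 (SE 0.09) and -0.23 (SE 0.12). *Bst2* had 100 and 68.9 CPM in WT and 101 and 54.7 CPM in *Phf2* KO. *Samhd1*, which degrades the nucleotides needed for reverse transcription, had 62.9 and 47.3 CPM in WT and 56.9 and 54.0 CPM in *Phf2* KO, inside the WT range. *Rsad2* (viperin, which makes a chain-terminating nucleotide) had 1.91 and 0.732 CPM in WT and 2.89 and 1.04 CPM in *Phf2* KO. Like *Mx1* and *Mx2*, dynamin-like GTPases against viruses, it had a ratio above 0 in both numbers with groups that overlapped. *Mx1* had only 11 and 2 counts in WT and 13 and 5 in *Phf2* KO. *Ifit3* had 103 and 80.6 CPM in WT and 99.8 and 79.0 CPM in *Phf2* KO, and shares 51.5% of its 50-base windows with a neighbouring gene of the same family. *Ifit1* and *Ifitm1* had overlapping groups at mean levels of 6.73 and 2.91 CPM.

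The interferon-inducible GTPases act on the vacuoles of intracellular pathogens. Of the 6, 5 had fold changes below 0 and 1 above, and none passed the test. *Irgm1*, a regulator of the family, had 35.4 and 20.3 CPM in WT and 26.6 and 19.8 CPM in *Phf2* KO (log2 fold change -0.26, SE 0.31, adjusted p = 0.999 in edgeR), so the 2 libraries of replicate 2 were close and the 2 of replicate 1 were apart. With the replicate number as a block, its log2 fold change was -0.23 (SE 0.10, adjusted p = 0.168 in edgeR). *Gbp2* had 5.39 and 3.62 CPM in WT and 4.00 and 2.83 CPM in *Phf2* KO. *Gbp3*, *Gbp7*, *Igtp* and *Iigp1* had mean levels from 0.561 to 7.89 CPM and overlapping groups. Of the other interferon-stimulated genes, *Ifi27* had the highest CPM, with 122 and 133 CPM in WT and 129 and 136 CPM in *Phf2* KO (log2 fold change 0.05, SE 0.09, adjusted p = 0.999 in edgeR). *Ifi35* had 32.7 and 33.5 CPM in WT and 35.9 and 35.3 CPM in *Phf2* KO, which did not overlap. *Xaf1*, *Rtp4* and *Ifi44* had overlapping groups, and *Ifi44* had between 11 and 16 counts in each library.

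The same 43 genes were then compared between the replicate numbers, over both groups, in a fit with genotype and replicate number. Here 30 were called higher in replicate 1 at an adjusted p under 0.1 in edgeR's quasi-likelihood test, against 13.6% of all genes, and 1 was called lower, against 12.6% of all genes. The log2 fold change of replicate 1 to replicate 2 was above 0 for 40 and below 0 for 3, with a median of 0.59 against -0.01 over all genes. The median ratio of replicate 1 to 2 was 0.57 over the WT libraries and 0.51 over the *Phf2* KO libraries. Both libraries of replicate 1 lay above both of replicate 2 for 34 of the 43 genes, against 24.2% of all genes. This fit rests on 4 libraries and 1 residual degree of freedom. It treats the libraries of a number as independent, and the labels do not say whether they share an embryo or culture. If they do, its p-values do not measure the spread between embryos or cultures. DESeq2 called 11 of the members higher (*Oas1a*, *Oasl2*, *Isg15*, *Trim25*, *Parp14*, *Dtx3l*, *Ifit1*, *Ifit3*, *Bst2*, *Irgm1* and *Rtp4*) and none lower. Of all genes it called 10.2% in either direction. With the replicate number alone edgeR called 19 higher, and in that fit it called 12 with WT replicate 1 left out, 16 with WT replicate 2, 17 with *Phf2* KO replicate 1 and 15 with *Phf2* KO replicate 2 left out.

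*Oas1a*, *Oas2* and *Oas3* had the largest log2 fold changes. *Oas2* had 4.27 CPM in WT replicate 1 and 2.80 CPM in *Phf2* KO replicate 1, against 0.154 and 0.832 CPM in replicates 2, a log2 fold change of 2.87 (SE 0.31, adjusted p = 7.27e-19 in edgeR and 0.103 in DESeq2, where it was not called). *Oas1a* had 43 and 31 counts in replicates 1 of WT and *Phf2* KO against 4 and 7 in replicates 2, a log2 fold change of 2.87 (SE 0.42, adjusted p = 3.17e-10 in edgeR and 0.013 in DESeq2). Each library of replicate 1 was well above each of replicate 2. *Oas3* had 1 and 2 counts in replicates 2, so its ratio is wide. It was 25.8 in WT (95% exact interval 4.21 to 1062) and 8.12 in *Phf2* KO (1.86 to 73.6). That of *Mx1* was 5.92 in WT (1.29 to 55.0) and 3.02 in *Phf2* KO (1.01 to 10.8), and that of *Oasl1* was 5.38 (0.602 to 255) and 5.80 (1.24 to 54.5). These intervals cover counting error only. *Oasl2* rose with them, with a log2 fold change of 1.24 (SE 0.17). Of the 6 tested enzymes 4 were called higher in replicate 1 in edgeR, against 13.6% of all genes. DESeq2 called only *Oas1a* and *Oasl2* of them, and it gave no adjusted p for *Oas3*. *Adar* and *Eif2ak2*, at 0.17 and 0.15 on the log2 scale, did not pass the test.

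Genes of the other roles were called higher in replicate 1 as well. The counts by role stand against 13.6% of all genes called higher and 12.6% called lower in edgeR. Each of the 6 modifiers was called in edgeR, from 0.48 on the log2 scale for *Parp9* to 1.05 for *Parp14*, with *Isg15* at 0.88 (SE 0.17). In DESeq2 the calls of *Parp9* (adjusted p = 0.177) and *Usp18* (adjusted p = 0.386) were lost. Of the effectors 8 of 11 were called higher, among them *Rsad2* at 1.43 (SE 0.30), *Ifit1* at 1.29 (SE 0.17), *Mx2* at 1.01 (SE 0.28) and *Bst2* at 0.71 (SE 0.08). Of the effectors DESeq2 called only *Ifit1*, *Ifit3* and *Bst2*. The calls of *Rsad2* (adjusted p = 0.153), *Mx2* (adjusted p = 0.423), *Samhd1* and *Ifitm3* were lost, and *Mx1* had no adjusted p in DESeq2. Of the GTPases it called only *Irgm1*, and those of *Iigp1* (adjusted p = 0.27), *Gbp2*, *Gbp3* and *Igtp* were lost. *Ifit1* had 10.2 and 8.88 CPM in replicates 1 and 3.66 and 4.16 CPM in replicates 2 of WT and *Phf2* KO. *Ifitm1* alone was called lower, at -0.56 (SE 0.23, adjusted p = 0.061 in edgeR and 0.747 in DESeq2), with 2.11 and 2.61 CPM in replicates 1 and 3.20 and 3.74 CPM in replicates 2. Its neighbours in the same gene cluster did not follow it, since *Ifitm2* stood at 0.03 without passing the test and *Ifitm3* was called higher. The log2 fold change of *Ifitm3* was 0.21 (adjusted p = 0.071 in edgeR and 0.121 in DESeq2). Of the GTPases 5 of 6 were called higher, from 0.52 for *Igtp* to 2.18 (SE 0.49) for *Iigp1*, which had 27 and 15 counts in replicates 1 and 5 and 5 in replicates 2. *Gbp7* stood at 0.26 and did not pass. *Ifih1*, *Dhx58* and *Tlr3* were the 3 sensors called, at 0.59, 0.61 and 0.62, while *Ddx58* stood at 0.16 and *Mavs* at 0.06 without passing. *Stat2* and *Irf7* were called at 0.24 and 0.50, and *Irf1* and *Irf9* were not. *Rtp4* and *Xaf1* were called at 1.26 and 0.69, while *Ifi27*, *Ifi35* and *Ifi44* were not. In DESeq2 the calls of *Ifih1*, *Dhx58*, *Tlr3*, *Stat2*, *Irf7* and *Xaf1* were lost.

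Macrophage markers moved with this difference. All 25 that were tested were called higher in replicate 1, against 13.6% of all genes. Their median log2 fold change was 2.03, and their median ratio was 2.29 in WT and 1.80 in *Phf2* KO. *Cx3cr1*, the one marker not tested, had between 1 and 8 counts in each library. Of 14 fibroblast markers 2 were called higher and 1 lower, against 13.6% and 12.6% of all genes, with a median of -0.02. The sex-linked genes given above moved with the replicate number too. The part of macrophage content, of sex and of any other property of the replicates in the difference of the interferon-stimulated genes was not tested. In bulk RNA, more cells of a type and more RNA per cell cannot be told apart. In the plot of replicate 1 against replicate 2 the macrophage markers form a group near 2 on both axes, and most of the 43 genes lie nearer to 0.

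**Figure D3:**
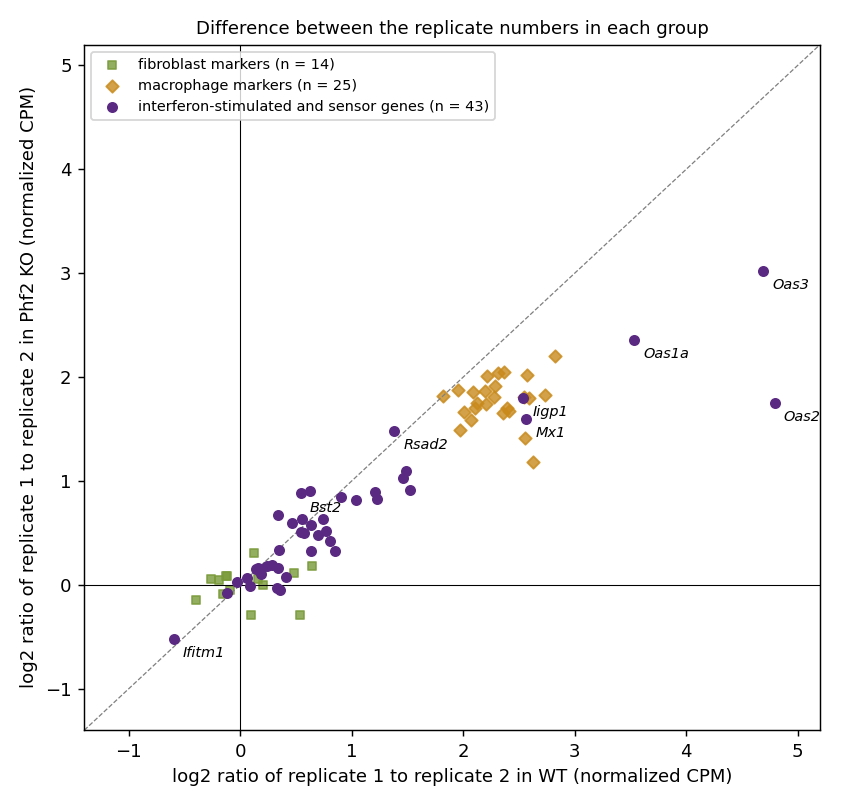
log2 ratio of replicate 1 to replicate 2 (normalized CPM) in WT (horizontal) and in *Phf2* KO (vertical), for the 43 tested genes, 25 macrophage markers and 14 fibroblast markers; each point is a gene and the dashed line marks equal ratios. *Oas2* stands at 4.79 in WT and 1.75 in *Phf2* KO, and *Ifitm1* below 0 on both axes.

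The promoter matches were set beside this difference. Of the 18 genes with the response element core, 14 were called higher in replicate 1, against 13.6% of all genes. The median log2 fold change over the 18 was 0.57. Of the 15 tested genes with a promoter entry and no match, 7 were called higher, with a median of 0.24. Between *Phf2* KO and WT the medians were -0.10 and 0.01. *Oas3*, *Oas1a*, *Rsad2* and *Ifit1*, whose stretches are printed above, led the order by fold change among the genes with a promoter entry and held the core within 120 bases upstream of the start. *Oasl2*, the next in that order, had no match in its window. *Ifitm2* held a match and differed little. The counts and medians describe these genes, and no test was made of them.

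**Figure D4:**
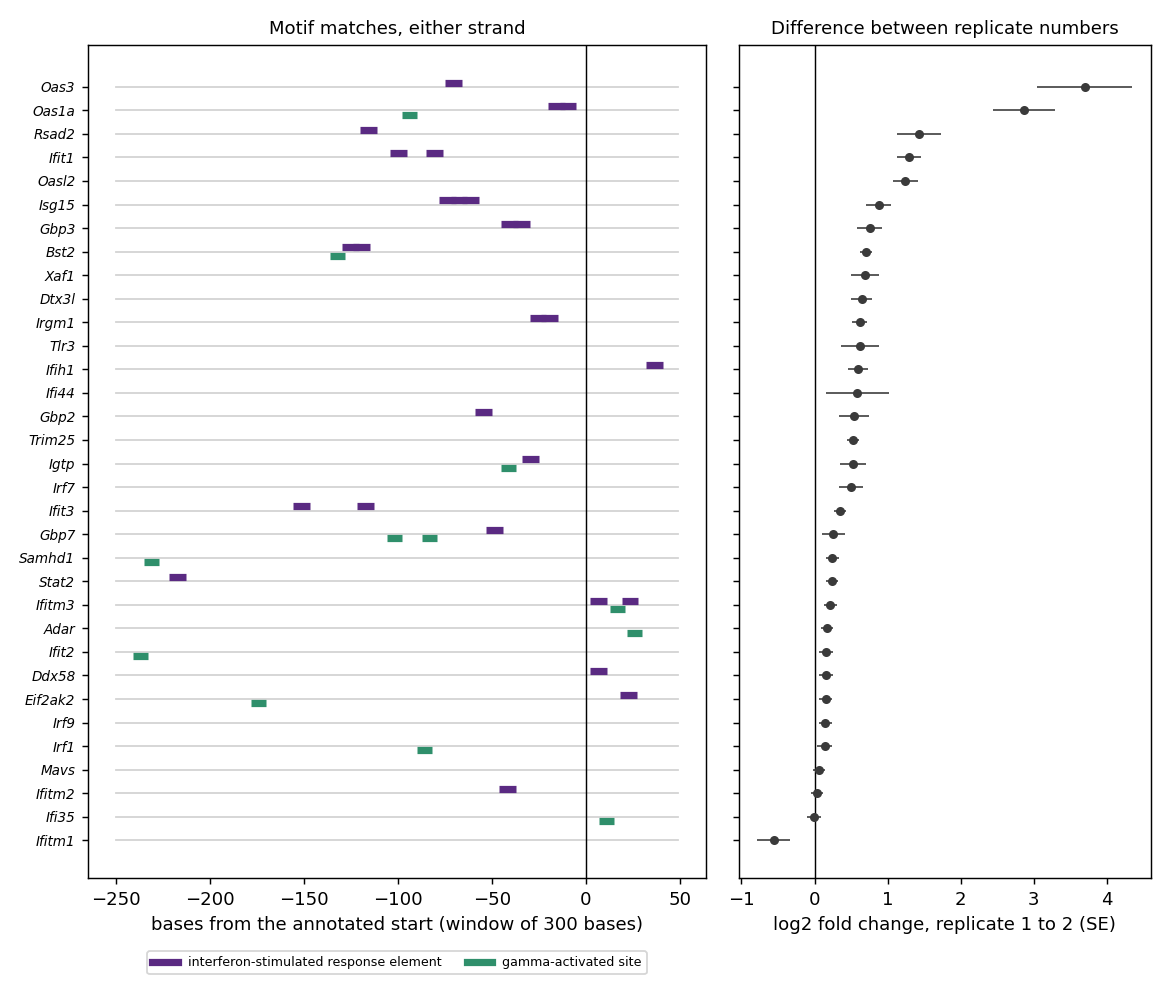
Left, matches to the response element core (purple) and the gamma-activated site (green) by distance in bases from the annotated start, for the 33 tested genes with a promoter entry. Right, log2 fold change of replicate 1 to replicate 2 with its SE, in the same order; *Oas3* is at the top with 3.69 and *Ifitm1* at the bottom with -0.56.

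Other genes of the pathway were counted by list. Of the 21 interferon genes, the ligands, 18 had 0 counts in all 4 libraries, which allows up to 0.145 CPM in the shallowest library. *Ifna6* and *Ifna7* had 1 count in 1 *Phf2* KO library each, and *Ifnz* had 7 and 3 counts in WT and 0 in both *Phf2* KO libraries. Of 13 receptor and JAK-STAT genes none was called between the groups with or without the block, and 5 were called higher in replicate 1, against 13.6% of all genes. Of 16 sensing adaptors and kinases, none was called without the block and 2 were called higher in *Phf2* KO with it, against 5.77% of all genes. They were *Ikbke* (blocked log2 fold change 0.30, adjusted p = 0.024 in edgeR), a kinase that activates Irf3, with 31.4 and 31.2 CPM in WT and 41.1 and 36.2 CPM in *Phf2* KO, and *Traf3* (0.23, adjusted p = 0.064 in edgeR), an adaptor upstream of it. Between the replicate numbers 7 of the 16 were called higher and 2 lower, against 13.6% and 12.6% of all genes.

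Of 12 genes of nucleic acid clearance, 1 was called higher and 1 lower in *Phf2* KO with the block and none without. With so few genes these counts are close to the 5.77% and 5.2% of all genes. *Adarb1*, a second adenosine deaminase of RNA, had 13.2 and 18.6 CPM in WT and 23.5 and 26.2 CPM in *Phf2* KO (blocked log2 fold change 0.65, adjusted p = 4.14e-07 in edgeR). Its *Phf2* KO libraries lay above its WT libraries, unlike those of *Adar*. *Zc3hav1*, an antiviral protein that binds CpG-rich RNA, fell by 0.23 on the log2 scale in the blocked fit (adjusted p = 0.077), with 77.5 and 50.2 CPM in WT and 64.8 and 43.7 CPM in *Phf2* KO. Of these 12, 3 were called higher and 1 lower in replicate 1, against 13.6% and 12.6% of all genes.

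Of 47 further interferon-stimulated genes tested, none was called without the block. With it *Trafd1* was called higher (0.22 on the log2 scale, adjusted p = 0.085 in edgeR) and *Ly6e* and *Ube2l6* lower (-0.41 and -0.39, adjusted p = 4.28e-05 and 0.03). These counts of 1 and 2 of 47 are below the 5.77% and 5.2% called among all genes. *Ly6e*, which encodes a membrane protein that limits coronavirus entry, had 158 and 141 CPM in WT and 116 and 109 CPM in *Phf2* KO, and *Ube2l6*, the conjugating enzyme for Isg15, had 16.8 and 14.3 CPM in WT and 14.2 and 9.77 CPM in *Phf2* KO. For both, the *Phf2* KO libraries lay below the WT libraries. Between the replicate numbers 29 of the 47 were called higher, against 13.6% of all genes, and none lower, with a median log2 fold change of 0.38.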

How the data were processed

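Per the labels and the methods of the study, reads were trimmed with Trim Galore, cleared of ribosomal RNA with Bowtie2, aligned to mm9 with STAR and counted per gene with featureCounts. The authors deposited the counts as whole numbers without normalization. Tool versions, the annotation release and the handling of reads that match several genes are not given in the sources used here. A deposited table of the authors' own DESeq2 comparison (fold changes and p-values) was not used.

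Counts were analysed with edgeR 4.0.16 in R 4.3.3. After filterByExpr and TMM scaling, 13668 genes entered the quasi-likelihood test of genotype, with p-values adjusted by Benjamini-Hochberg and a threshold of 0.1. Each SE of an edgeR log2 fold change was calculated back from the test, as its absolute value over the square root of the F statistic. The replicate numbers were compared in an additive fit of genotype and number. DESeq2 1.42.0 and limma 3.58.1 were alternatives. Gene positions and exon lengths came from GENCODE vM1, promoters from RefSeq, and figures from Matplotlib 3.10.9. The tests were tried on simulated data. The 45 genes, the lists and the tests were chosen with earlier results of these data known. All 45 genes are named, with full values for those called in either fit of the groups and for the highest CPM in each of the 7 roles. Other values are printed as a description, for genes chosen after their values were seen. Pathway genes are named where called in the blocked fit, and the interferon genes where counted. An item of the receptor and JAK-STAT list is not reported here.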

Additional observations from a re-analysis of the deposited data

How the results depend on the processing

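No member was called between the groups by edgeR's quasi-likelihood test, DESeq2, limma-voom or the likelihood ratio test without the block (0 members at an unadjusted p under 0.05 in the first), with RLE factors or library size alone, with either other filter, or without any 1 library. Over all genes, DESeq2 called 10 higher and 54 lower, the likelihood ratio test 3 and 38, and limma-voom 0 lower (352 at an unadjusted p under 0.05). At an adjusted p under 0.05 and without any 1 library, 0 were lower (between 154 and 365 at an unadjusted p under 0.05). The replicate block called 789 genes higher, 711 lower and 1 member higher. Blocked limma-voom called 725 and 646 genes, blocked DESeq2 187 and 119, and the block at an adjusted p under 0.05 577 and 539, with no member in these 3 fits, which were chosen after seeing the data. Blocked DESeq2 gave an adjusted p to only 19 members, so the others could not be called there. The labels do not state a pairing by replicate number. The differences between replicates 1 and 2 in WT and in *Phf2* KO had a Pearson's r of 0.854 across genes averaging 50 counts or more, which are not independent. Libraries of the same number also shared their sex-linked counts, but the pairing rests on the counts and on 2 pairs. In the fits on all 4 libraries, between 13 and 16 members had log2 fold changes above 0, so signs near 0 depend on the setting. When a library was left out, the log2 fold change ran from -0.14 to 0.055 for *Adar*, from -0.16 to 0.13 for *Stat2*, from -0.29 to 0.30 for *Trim25* and from -0.61 to 0.20 for *Irgm1*, each highest without WT replicate 1.

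Between the replicate numbers, DESeq2 called 889 genes higher and 475 lower and 11 members higher and 0 lower. The number alone gave 1002 and 443 genes and 19 and 0 members (1 lower at an unadjusted p under 0.05). Leaving out a library from that fit gave between 858 and 944 genes higher and between 234 and 615 lower, and between 12 and 17 members higher and 0 lower. At an adjusted p under 0.05, 28 members were higher and 0 lower (1 at an unadjusted p under 0.05). The calls of *Ifitm1*, *Ifitm3* and *Tlr3* therefore rest on the threshold. Limma-voom, RLE factors and all genes with at least 1 count each called 30 members higher and 1 lower. The cause of these changes was not tested. Counts of 1 to 5 in at least 1 library of replicate 2 limit what can be said of *Oas1a*, *Oas2*, *Oas3*, *Oasl1*, *Mx1* and *Iigp1*. A leave-out fit leaves 1 library in a group, which is assumed to vary like the others.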
